A study of Caenorhabditis elegans with 4 samples.

Results

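Chromosome II carried 390 of the 2162 HPL-2 peaks that the authors deposited in a list combining their ChIP samples. The 390 were chosen by chromosome name alone, without regard to their strength, width or replicate support. The map comes from ChIP-seq, the sequencing of DNA recovered with a chromatin protein, in starved first-stage (L1) hermaphrodites of Caenorhabditis elegans strain YL474, at 20 degrees Celsius. All animals had the genotype lin-35(n745) I and unc-119(ed3) III, and carried the integrated transgene vrIs64 with unc-119 (+). The transgene expresses HPL-2 fused to GFP and 3xFlag from the ges-1 promoter, so the tagged protein is expected in the intestine. These data do not show where it was made. The peaks are those called for this tagged protein against the chromatin of whole larvae. The series holds 2 ChIP samples, recovered with antibodies against GFP, and 2 Input samples of genomic DNA from the same lysates. The series has no sample with wild-type lin-35 and no ChIP from untagged animals, and separate cultures for the ChIP samples are not stated in the labels. The peaks are therefore described as those of a lin-35 mutant, with no comparison of genotypes.

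HPL-2 belongs to the heterochromatin protein 1 family. Its members carry a chromodomain that reads methylated lysine 9 of histone H3 and a chromoshadow domain through which they pair and recruit other proteins. In C. elegans, HPL-2 acts with LIN-35, the worm retinoblastoma protein, in the synthetic multivulva class of repressors, which also keep germline genes silent in somatic cells. Worm autosomes are divided into gene-dense centres and arms that are richer in repeats and in methylated lysine 9 of histone H3, so the place of a peak along the chromosome is part of its description. The genome sequence of the build used by the files, WormBase WS220, was not at hand, so regions are given by position and neither their sequence nor the genes in them are named. All positions below are on WS220.

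Replicate 1 had 260 peaks on chromosome II, of 1288 in all, and replicate 2 had 31, of 177 in all. In the combined list the 390 peaks covered 231.2 kb, or 1.52% of the 15.2 Mb between base 1 and the last peak end on the chromosome. The replicate 1 peaks covered 163.6 kb and the replicate 2 peaks 17.2 kb. Read depth is unknown for all 3 lists, so a shorter list and a shallower library cannot be told apart. Each peak comes with a first base, a last base and 1 q-value from the authors' caller, and a smaller q-value is called stronger here.

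HPL-2 peaks were present along the whole chromosome, in the arms as in the centre. The first combined peak began at base 41915 and the last ended at base 15221304. When the chromosome was divided into 3 equal segments, the left segment held 111 peaks (28.5%, exact 95% confidence interval 24 to 33.2%), the centre 136 (34.9%, 30.1 to 39.8%) and the right 143 (36.7%, 31.9 to 41.7%). The outer segments together, taken as the arms, held 254 peaks or 65.1% (60.2 to 69.9%), where 62.2% of all autosomal combined peaks lay in arms. Because the 3 segments are equal in length, an even spread of peaks would give the arms a share within this interval. The other autosomes had 877 of 1429 peaks there (61.4%), which was not past the threshold of 0.05 (two-sided Fisher's exact test, adjusted p = 0.325). When each autosome was cut into 4 equal pieces and the first and last were taken as arms, the shares were 50.5% against 43.5%, a larger difference that was also just short of the threshold (Fisher's exact test, adjusted p = 0.0512). Arms so defined are as long as the rest, so an even spread would put as many peaks inside them as outside. By either definition chromosome II was near an even spread between arms and the rest. The other autosomes, when pooled, had fewer peaks in arms than their length would give. With 3 equal segments the single shares in arms were 64.5% on III, 61.9% on IV, 60.1% on I and 58.8% on V. Chromosome III was thus close to chromosome II. Within chromosome II, the interval for the left segment ended just below an equal share among the 3 segments. Intervals here cover counting error only, and neighbouring peaks are not independent, so the p-values are too small and describe the lists rather than animals.

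The segments differed more in covered length than in number of peaks. Peaks covered 53.8 kb of the left segment, 87.2 kb of the centre and 90.2 kb of the right. Median width was 370 bp on the left, 426 bp in the centre and 416 bp on the right, and the median -log10 q was 3.02, 3.27 and 3.40. The left segment also had the smallest share of peaks that overlapped a replicate 1 peak, 60 of 111 (54.1%, 44.3 to 63.6%). The centre had 87 of 136 (64%, 55.3 to 72%) and the right 96 of 143 (67.1%, 58.8 to 74.8%). These intervals overlap, and the difference between segments was not tested.

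In windows of 500 kb, counted by peak midpoint from base 1, the number of combined peaks ranged from 4 to 24 with a median of 12. The fullest window ran from base 5000001 to 5500000, across the boundary between the left segment and the centre, and 14 of its 24 peaks overlapped a replicate 1 peak while 0 overlapped one of replicate 2. The place of the fullest window depended on the list and the window size: it was 2000001 to 2500000 in replicate 1 (17 peaks), 5500001 to 6000000 in replicate 2 (3 peaks, as many as at 8500001 and 11000001) and, with windows of 250 kb, 1750001 to 2000000 in the combined list (14 peaks). Windows with 20 combined peaks began at bases 1500001, 2000001, 8500001 and 11500001. The one at 2000001 had 17102 bp covered by its peaks, the most of any window, and the one at 1500001 had 7546 bp with the same number of peaks. The sparsest complete windows were at 1000001, with 4 peaks, and at 500001, 4000001 and 7500001, with 5 each. Replicate 1 had peaks in all 31 windows and replicate 2 in 21 of them. At a finer scale, 21 of 153 windows of 100 kb held no combined peak, and the fullest, from 1800001 to 1900000, held 13.

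**Figure D1:**
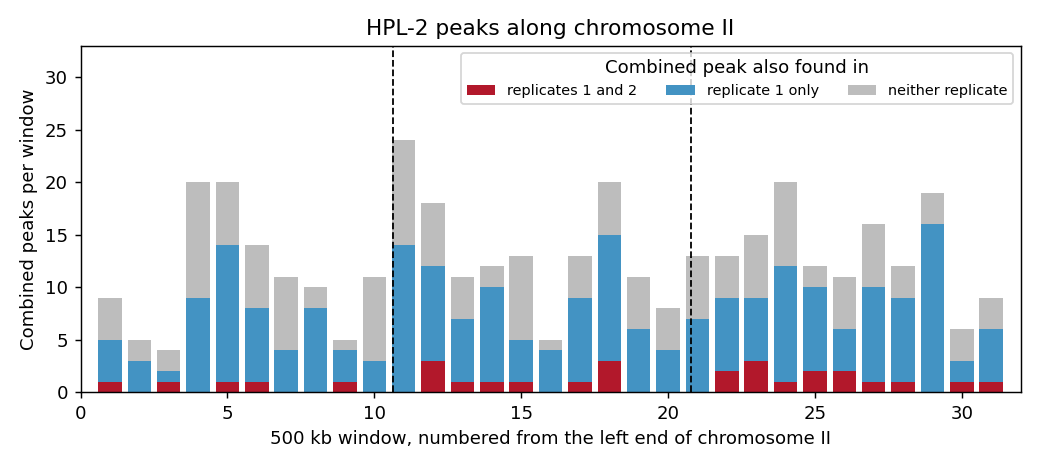
Combined HPL-2 peaks per 500 kb window of chromosome II, with windows numbered from the left end on the horizontal axis and the number of peaks on the vertical axis. Colours divide each bar by whether the peaks overlap a peak of both replicates, of replicate 1 only or of neither, and dashed lines mark the 3 equal segments. Bars reach 24 peaks in the fullest window and 4 in the sparsest, with full and sparse windows in each segment.

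The longest stretch with no combined peak lay near the left end, from base 761690 to 1159745, and measured 398.1 kb. It was not wholly empty in the other lists, since a replicate 1 peak of 159 bp at 1144935 to 1145093 (q-value 0.00448) fell inside it. Counting all 3 lists, 383.2 kb remained without a peak. The next longest stretches were 4050002 to 4299273 (249.3 kb), 12426077 to 12671777 (245.7 kb), 10872820 to 11097336 (224.5 kb) and 14801426 to 15025428 (224 kb), and none of these 4 held a peak of either replicate. Distances between neighbouring combined peaks had a median of 17.7 kb (middle 50%, 2.62 to 52.2 kb). Of 389 such distances, 39 were at least 100 kb and 60 were under 1 kb, with the shortest at 226 bp. Both long empty stretches and tight groups of peaks were thus present on the chromosome.

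Peaks were often close to other peaks. With a run defined as neighbouring peaks whose midpoints each lie within 5 kb of the next, 180 peaks (46.2%) fell into 64 runs and 210 stood alone. Expressed as peaks whose next neighbour lay within 5 kb, the number was 116 of 390 (29.7%, 25.2 to 34.6%), against 28.4% of all combined peaks. Most runs were short: 35 held 2 peaks, 15 held 3 and 10 held 4. Of the 14 runs with 4 or more peaks, 8 were in the right segment, 3 in the centre and 3 on the left. Peaks in runs had a median width of 468.5 bp and peaks standing alone 354.5 bp. Replicate 1 peaks were found under 120 of the 180 in runs (66.7%, 59.3 to 73.5%) and 123 of the 210 alone (58.6%, 51.6 to 65.3%).

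The runs with the most peaks differed in length and in replicate support. A run of 7 peaks from 10541923 to 10563750 spanned 21.8 kb, and its peaks, 469 to 2810 bp wide, covered 59.6% of it. Replicate 1 had 8 peaks across that run and replicate 2 had 2, at its left and right ends. A second run of 7, from 11633984 to 11649616, spanned 15.6 kb with 35.5% covered. Only 3 of its peaks overlapped a replicate 1 peak and 0 a replicate 2 peak, and its narrowest member was 2 bp wide. The run from 11149818 to 11158014 packed 6 peaks into 8.20 kb, of which 5 were found in replicate 1 and 3 in replicate 2. A run of 5 peaks followed at 5201528 to 5210043 (8.52 kb), with 4 found in replicate 1 and 0 in replicate 2. Among the runs of 4, those at 12052820 to 12060306, 11974254 to 11980387 and 2284093 to 2290074 contain peaks ranked 1, 9 and 6 on the chromosome by q-value. In the same order, 4, 4 and 2 of their peaks were found in replicate 1, and 2, 1 and 1 in replicate 2. These 3 were named for a strong peak, so some support in them follows from that choice. The run of 4 at 13190899 to 13200057 also had support in both, with 3 and 1. Support varied among the 10 runs of 4. In 1619742 to 1623211 (3.47 kb) 0 of the 4 peaks were found in either replicate, and in 6374626 to 6382157 (7.53 kb) 1 was. The run of 4 at 8987985 to 8990689 was more tightly spaced than those with more peaks, spanning 2.71 kb.

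Replicate 1 showed most of the supported neighbours as separate peaks too. Of the 116 close pairs of combined peaks, 53 had both members found in replicate 1, and in 52 of these the members overlapped different replicate 1 peaks. In 1 pair a single replicate 1 peak covered both. A further 48 pairs had 1 member found in replicate 1, and 15 pairs had none. In the other direction, 11 combined peaks overlapped 2 or more replicate 1 peaks and 1 overlapped 2 replicate 2 peaks, so broad segments were divided differently in different lists.

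**Figure D2:**
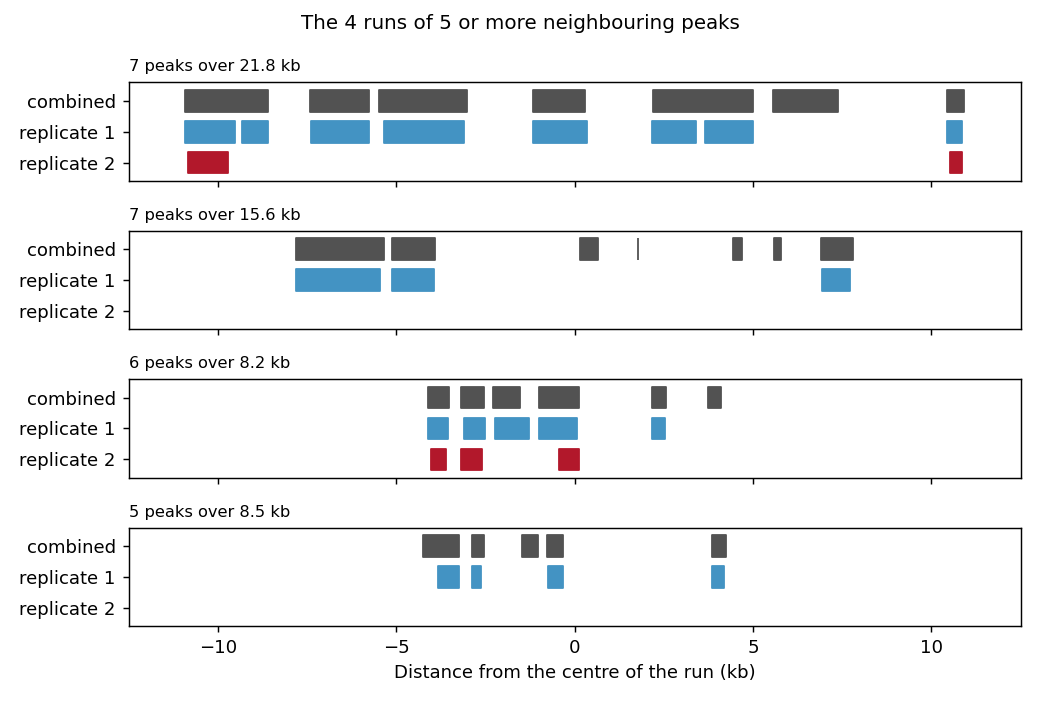
Peak intervals of the combined list and of each replicate in the 4 runs of 5 or more combined peaks, drawn by distance in kb from the centre of each run. Bars are peaks, to scale. Replicate 1 has 8 peaks in the 21.8 kb run and 3 in the 15.6 kb run, and replicate 2 has 3 peaks in the 8.20 kb run.

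Most peaks were narrow. The median width was 407.5 bp (middle 50%, 286.5 to 628.2 bp), much as in the whole combined list, at 398 bp (292 to 628.75 bp). On chromosome II, 229 of the 390 peaks (58.7%) were from 300 to under 1000 bp wide. No such share is given for the whole list. In the replicate lists the median on this chromosome was 433 bp in replicate 1 and 446 bp in replicate 2. Where a combined peak matched a single replicate 1 peak and the reverse, which held for 230 pairs, the replicate 1 peak was narrower in 182 and wider in 38, with a median of 93.6% of the combined width. For 28 such pairs with replicate 2 the median was 72.4%, and 27 of the replicate 2 peaks were narrower.

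A small number of broad segments accounted for much of the covered length. Of the 390 peaks, 51 were at least 1 kb wide, where 272 of all 2162 combined peaks were, a similar share. These 51 held 41.5% of the covered bases. The 17 peaks of at least 2 kb held 48.6 kb or 21%. Shares of covered bases are not given for the whole list, so no difference from it is claimed. These 17 were 4.36% of the peaks (2.56 to 6.89%), against 3.47% of all combined peaks and 3.27% of those on the other chromosomes (Fisher's exact test, two-sided, adjusted p = 0.357). The direction changed with the list: in replicate 1 alone 10 of 260 peaks were that wide (3.85%), against 4.28% elsewhere. In replicate 2 alone 0 of its 31 peaks on this chromosome were, against 2.74% elsewhere. For that 0 of 31, an upper limit of 3 counts is 9.68%. All 17 were found in replicate 1 and 6 in replicate 2. In runs, 12 of the 17 had a close neighbour on one side or the other.

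The widest peak lay in the centre from 9616956 to 9622456 and measured 5501 bp, with a q-value of 3.77e-28. Replicate 1 held it as 1 peak of 5395 bp and replicate 2 had no peak in it. The second widest, 8743258 to 8747817 (4560 bp), overlapped 2 replicate 1 peaks and 1 replicate 2 peak of 420 bp. Next came 12052820 to 12056730 (3911 bp), 6345275 to 6349170 (3896 bp) and 2286979 to 2290074 (3096 bp). Each of these 3 overlapped 1 replicate 1 peak, of 3946, 3580 and 2382 bp, and the first of those replicate 1 peaks ran from 12052821 to 12056766, past the end of the combined peak. Replicate 2 had 1 peak of 1064 bp at 12052820, 2 peaks at 6345275 and 1 peak of 700 bp at 2286979. Replicate 2 therefore marked parts of 4 of the 5 widest segments, and never a whole one.

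**Figure D3:**
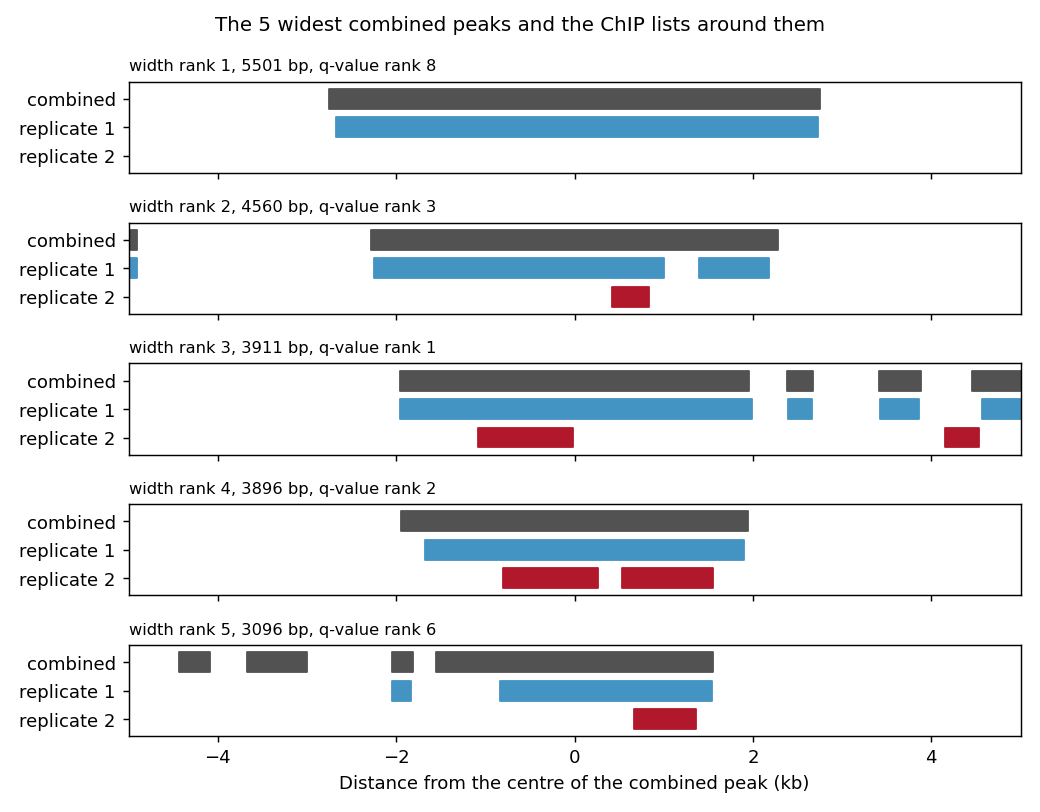
The 5 widest combined peaks on chromosome II, with the peaks of each replicate around them, drawn to scale by distance in kb from the centre of the combined peak. The widest, 5501 bp, has no replicate 2 peak, and in the others replicate 2 peaks cover a part of the combined peak.

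Broad and narrow peaks were mixed among the strongest sites. Of the 10 peaks with the smallest q-values, 6 were at least 2 kb wide and 3 were under 1 kb, and 6 lay in the centre, 3 on the right and 1 on the left. The strongest was 12052820 to 12056730, with a combined q-value of 3.17e-59, a replicate 1 q-value of 4.99e-48 and a replicate 2 q-value of 5.56e-05. It stood at rank 20 of the whole combined list, and at ranks 17 and 51 of the replicate lists. The second, 6345275 to 6349170, had q-values of 2.39e-52, 3.08e-39 and 7.37e-06 in the same order of lists. Both are broad segments, and both were also first and second on the chromosome in replicate 1.

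The peak ranked 3, from 8743258 to 8747817, had a combined q-value of 7.03e-41 and a replicate 1 q-value of 3.99e-25, but its best replicate 2 peak had a q-value of 0.00907, at rank 170 of 177. The next 2 in rank were narrow. The peak at 5844458 to 5845207 was 750 bp wide and had q-values of 1.08e-32 in the combined list, 6.61e-26 in replicate 1 and 3.37e-08 in replicate 2. The peak at 5543329 to 5543962, of 634 bp, had q-values of 4.02e-32, 1.75e-26 and 7.11e-05. The replicate 1 peaks there were 724 and 620 bp wide and covered 719 of the 750 bp and 620 of the 634 bp.

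Ranks 6 to 10 went on in the same mixture. The peak at 2286979 to 2290074 had a combined q-value of 7.69e-31, and that at 12810860 to 12813175 (2316 bp) one of 1.17e-28. Both were in replicate 1 and in replicate 2, where their q-values were 0.000134 and 0.00124. The widest peak, at 9616956, was eighth. The ninth, 11974254 to 11975062, was 809 bp wide with a combined q-value of 2.59e-23 and a replicate 2 q-value of 0.000137. The tenth, 8819727 to 8821203 (1477 bp, q-value 3.44e-22), had a replicate 1 q-value of 3.31e-18 and no replicate 2 peak. All 10 were in replicate 1, and 8 of the 10 in replicate 2.

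The order of strength was different in replicate 2, where the 3 strongest peaks were all under 1 kb wide. Its strongest peak on the chromosome was the narrow region at 5844458, at rank 29 of the whole replicate 2 list. The next 2, 14561585 to 14561909 (325 bp, q-value 1.43e-06) and 8561147 to 8561578 (432 bp, q-value 2.88e-06), lay in combined peaks ranked 13 and 11 on the chromosome. Its 5 peaks of at least 1 kb, from 1022 to 1108 bp wide, came next in the order, at ranks 4 to 7 and 9 on the chromosome. In replicate 1 the 3 strongest were those at 12052821, 6345544 and 5543343, with widths of 3946, 3580 and 620 bp. Among the 20 strongest combined peaks, all 8 that were under 1 kb wide were found in replicate 2, as were 6 of the 9 that were at least 2 kb wide and 1 of the 3 between. These numbers are small, were counted after the values were seen, and were not tested. Over the 29 combined peaks found in replicate 2, Spearman's rho between combined and best replicate 2 -log10 q was 0.53, and between combined width and replicate 2 -log10 q it was 0.15. Over the 243 found in replicate 1, rho between combined and replicate 1 -log10 q was 0.87. The combined list comes from the same samples, so these correlations describe the lists and are not independent.

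Wider peaks had smaller q-values over the chromosome as a whole. Spearman's rho between width and -log10 q was 0.63 over the 390 combined peaks, 0.62 over the 260 of replicate 1 and 0.57 over the 31 of replicate 2. The median -log10 q was 3.23 (middle 50%, 2.40 to 5.08). It was 2.46 for the 87 peaks from 100 to under 300 bp, 4.48 for the 81 from 500 to under 1000 bp and 18.2 for the 17 of at least 2 kb. Width and q-value both come from the caller, and whether longer peaks collected more reads was not tested. At the weak end, the 3 peaks with the largest q-values were 9483345 to 9483592 (0.00976), 14290768 to 14290999 (0.0096) and 13083752 to 13084019 (0.00959), and none overlapped a replicate peak. Chromosome II held 2 of the 25 strongest peaks of the whole combined list and 20 of the 100 strongest. The latter were 5.13% of its peaks, where the other chromosomes had 80 of 1772 among the 100 (4.51%), a difference that was not tested. Those 80 were unevenly divided: X had 32 of its 343 peaks among them. The other autosomes each had a smaller share than chromosome II: V had 17 of 393, III 12 of 330, IV 10 of 478 and I 9 of 228.

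**Figure D4:**
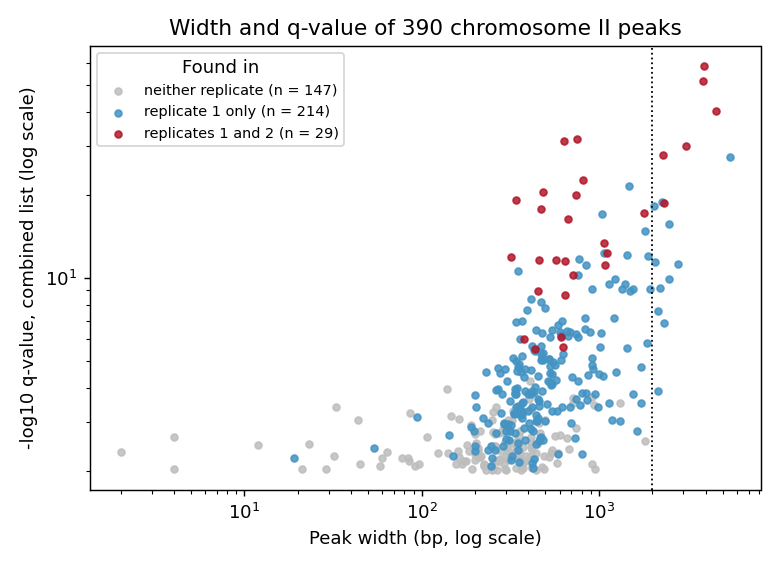
Width in bp against -log10 q-value of the 390 combined peaks on chromosome II, both on log axes, 1 point per peak, coloured by the replicate lists in which it was found. The dotted line marks 2 kb. Points of the 29 peaks found in both replicates lie at high -log10 q over a wide range of widths, and those of the 147 found in neither lie at the bottom.

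Support from the replicate lists was counted as an overlap of 1 bp or more. Replicate 1 peaks were found under 243 of the 390 combined peaks (62.3%, 57.3 to 67.1%), against 56.9% of all combined peaks and 988 of 1772 on the other chromosomes (55.8%). The difference of 6.55 percentage points did not pass after adjustment over the 5 shares compared (Fisher's exact test, two-sided p = 0.0205, adjusted p = 0.079). It passed when peaks under 100 bp were left out, at 65.4% against 58.1% (Fisher's exact test, adjusted p = 0.0492), a setting chosen after the data were seen. Replicate 2 peaks were found under 29 (7.44%, 5.04 to 10.5%), against 7.35% of all combined peaks and 130 of 1772 elsewhere (7.34%; Fisher's exact test, adjusted p = 0.915). All 29 were also in replicate 1, where 6.94% of all combined peaks were in both lists. The remaining 147 (37.7%, 32.9 to 42.7%) overlapped no peak of either replicate, against 42.6% of all combined peaks and 43.7% of those elsewhere (Fisher's exact test, adjusted p = 0.079).

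Support followed the rank by q-value. The 128 strongest combined peaks on the chromosome all overlapped a replicate 1 peak. From rank 101 to rank 200 the share was 85 of 100 (76.5 to 91.4%), and from 201 to 390 it was 58 of 190 (30.5%, 24.1 to 37.6%). Replicate 2 fell away much earlier, from 8 of the 10 strongest to 16 of the 40 next in rank (40%, 24.9 to 56.7%) and 5 of the 50 after those (10%, 3.33 to 21.8%). The weakest combined peak found in replicate 2 was at rank 87. At ranks past 100, 0 of 290 were found there, for which an upper limit of 3 counts is 1.03%. The replicate 2 list has only 31 peaks on the chromosome, and the 0 is a count against all 31. The combined list and its q-values rest on the same ChIP samples, so this order is a description and no independent test.

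**Figure D5:**
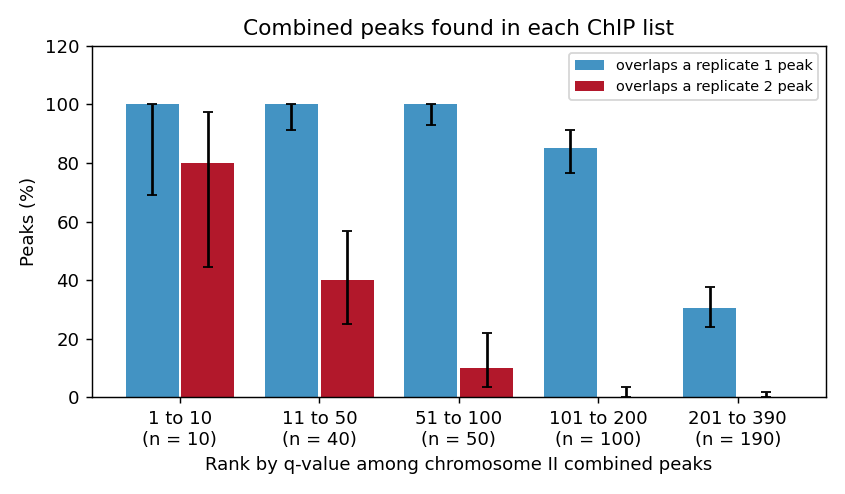
Share of combined peaks on chromosome II that overlap a peak of replicate 1 or replicate 2, in percent, by rank of the q-value on the chromosome. Error bars are exact 95% binomial intervals. Replicate 1 stays at 100% through rank 100 and is 30.5% at ranks 201 to 390, while replicate 2 goes from 80% at ranks 1 to 10 to 0 past rank 100.

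Support also followed width. A wide peak meets an overlap of 1 bp more easily, wider peaks had smaller q-values, and the lists rest on the same ChIP samples. This order is therefore a description and no independent test. The 23 peaks under 100 bp were 5.9% of the 390, against 5.46% of all combined peaks. Of these 23, 3 were found in replicate 1 (13%, 2.78 to 33.6%), and of the 87 from 100 to under 300 bp, 29 (33.3%, 23.6 to 44.3%). The share was 97 of 148 (65.5%) from 300 to under 500 bp, 65 of 81 (80.2%) from 500 to under 1000 bp and 32 of 34 (94.1%) from 1 to under 2 kb. Peaks found in both replicates had a median width of 671 bp and a median -log10 q of 16.4. Those found in replicate 1 only had 463 bp and 3.98, and those in neither 292 bp and 2.35. The strongest peaks in neither list were 4749549 to 4749956 (408 bp, rank 129), 15196377 to 15196515 (139 bp, rank 139) and 320387 to 321304 (918 bp, rank 158), 2 of them on the left and 1 on the right. The widest in neither list, 10558386 to 10560217 (1832 bp, q-value 0.00276), lies within the 21.8 kb run described above. This peak was singled out after its values were seen.

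Read from the replicate lists, the recovery on this chromosome was uneven between them. Of the 260 replicate 1 peaks, 29 (11.2%, 7.60 to 15.6%) overlapped a replicate 2 peak, where 11.6% of all replicate 1 peaks did. They comprised 8 of the 10 strongest, 9 of the next 20 and 7 of the 30 after those. Of the 70 peaks from rank 61 to 130, 1 was found again, and of the 130 from rank 131 to 260, 4 were. Of the 31 replicate 2 peaks, 30 (96.8%, 83.3 to 99.9%) overlapped a replicate 1 peak, where 92.1% of all replicate 2 peaks did. The 1 exception, 12058928 to 12059310 (383 bp, q-value 0.00837), lies beside the strongest segment of the chromosome. It reaches into a combined peak at 12059230 to 12060306, whose replicate 1 peak begins at 12059338, after the replicate 2 peak has ended. That combined peak therefore counts as found in both lists although the replicate peaks do not meet.

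A few replicate peaks were missing from the combined list. Of the 260 replicate 1 peaks 253 overlapped a combined peak, and the 7 others had ranks from 178 to 259 on the chromosome. Of the 31 replicate 2 peaks 30 did. The exception, 3994536 to 3994981, was found in both replicates: replicate 1 had it at 3994534 to 3994984 with a q-value of 0.00623, and replicate 2 had it at rank 61 with a q-value of 0.000143. Its edges differed by 2 and 3 bp between the replicates, yet the nearest combined peak was 3290 bp from it. This region was singled out after its values were seen. The labels and file headers do not tell how the combined list was made.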

How the data were processed

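The authors called peaks with PeakSeq, per the file headers and source column, and deposited 1 list for each ChIP sample and 1 combined list on WormBase WS220. Each row gives a first base, a last base and a q-value, which the authors' caller assigned as a p-value corrected for multiple tests. Comment lines mark peaks altered by conversion from another build. For the aligner, the settings, any threshold and the way lists were combined, nothing is stated in the labels or headers, and read depth is unknown. The largest q-value was 0.00996 in the combined list, 0.00992 in replicate 1 and 0.00999 in replicate 2. A combined peak found in neither replicate list can therefore still have weaker signal there, which was not tested. No Input list was used.

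Peaks with chromosome II in the first column were taken. The members and regions to name were chosen with earlier results of these data known: the 10 strongest, 5 widest, 3 weakest, 3 strongest in neither ChIP list, the 5 runs with the most peaks, the 5 longest empty stretches, the 3 strongest of each ChIP list and replicate 2 peaks outside replicate 1. Runs of 4 peaks tie for the last place among these 5, and those with a peak among the 10 strongest are given. Other runs of 4 are given for their support or spacing, and were singled out after their values were seen. Chromosome length was the furthest peak end in any list. Shares have exact (Clopper-Pearson) 95% intervals, and a share of 0 has an upper limit of 3 counts. For 5 shares, chromosome II was compared with the other chromosomes (autosomes for arms) by two-sided Fisher's exact test, adjusted by Benjamini-Hochberg over the 5, at a threshold of 0.05. Ranks were used within lists only. Functions were tested on simulated intervals, where 60 of 60 planted overlaps were found. Python 3.11.15, pandas 2.3.3 and scipy 1.17.1 were used. Alternatives were other overlap rules, lists, distances, windows and arm definitions. Leaving out peaks under 100 bp or chromosome I was added after the data were seen.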

Additional observations from a re-analysis of the deposited data

How the results depend on the processing

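Of 43 values under other settings, 28 kept their direction and side of the threshold or stayed within their interval (1.5 times for numbers of peaks and lengths). Where they did not, the cause was not tested. Shorter lists also have fewer peaks. The share found in replicate 1 passed only without peaks under 100 bp (65.4%). The share found in replicate 2 fell below that of the other chromosomes when an overlap of 0.5 of the shorter peak was required (7.18%) or chromosome I was left out of the comparison (7.44% against 8.03%). The list of 1 replicate was also used in place of the combined list, which was not remade. The share of peaks at least 2 kb wide was then 0% to 3.85%, below that elsewhere. Median width was 433 to 446 bp and the share with a close neighbour 12.9% to 27.3%. The densest window held 3 to 17 peaks and the longest empty stretch was 383.2 to 1796 kb. Among combined peaks with q-values up to the median of the whole list, median width was 546 bp and the share with a close neighbour 21.8%. That share was 17.4% within 2 kb and 41.5% within 10 kb, and the densest 250 kb window held 14 peaks. No paired analysis was possible because Input peak lists were not used and every value is a position, width or overlap of peaks rather than a fit over samples. Unknown depth limits any comparison of numbers of peaks between lists.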

Other observations

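The narrowest combined peak on chromosome II spanned 2 bp, at 11643578 to 11643579 (q-value 0.0045), and the next 4 bp each, at 2503035 and 4565328. Of peaks under 100 bp, replicate 1 had 6 on the chromosome and replicate 2 had 0. Comment lines mark 2 combined peaks on chromosome II as altered by the conversion from another build. They are 5660902 to 5662693, at rank 18 on the chromosome and found in both replicates, and 7478354 to 7479287, at rank 173 and found in neither. Their widths moved by 1 bp, from 1793 to 1792 bp and from 933 to 934 bp.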
